A study of Rattus norvegicus with 25 samples.

Results

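This comparison set 5 hippocampus libraries from injured rats given the thymus supplement (TD-CCI) against 5 from injured rats given vehicle (Vehicle-CCI). The 10 libraries were chosen by their group label alone, out of 25 libraries in 5 groups of 5. All 10 came from adult male Sprague-Dawley rats labelled as 6 to 7 weeks old, and all 10 had controlled cortical impact (CCI), in which a piston strikes the exposed cortex above the hippocampus. TD stands for a dosage of thymus in the labels, TCF for thymus cytosolic factor and TNF for thymus nuclear factor, which is not the cytokine of that abbreviation. Beside the 2 groups compared, the TCF-CCI and TNF-CCI groups had the same injury with the other supplements, and Vehicle-sham had vehicle and no impact. Neither the dose, the time after injury, the side of the brain nor the nature of the vehicle is given in the sources used here. No label says that each library is a separate animal, so p-values measure the spread between libraries.

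An impact to the cortex damages the hippocampus by deformation, bleeding and loss of input. The known response includes activation of microglia and astrocytes, loss or silencing of neurons, and repair by blood vessels and by the fibroblast-like cells of vessel walls and meninges, which lay down collagen. Such a scar matrix is built of fibrillar collagens, the basement membrane around vessels, and the integrins that bind them. The comparison asks whether the thymus supplement altered the transcripts of the injured hippocampus.

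No gene passed the test. With edgeR's quasi-likelihood F test, 0 of 21064 genes tested were called at an adjusted p under 0.05 (a background of 0%), and the smallest adjusted p was 0.9999. At an unadjusted p under 0.05 there were 368 genes, 1.75% of those tested, of which 208 were higher in TD-CCI (0.987%) and 160 lower (0.76%). For scale, 5% of the genes tested is 1053. DESeq2 called 1 of 32609 genes (0.00307%), the homeobox factor Irx2, and limma voom with sample quality weights called 0. All directions given below are therefore descriptions of these libraries and not called changes. The same fit called no gene for the injury itself either. Its smallest edgeR adjusted p was 0.132 for Vehicle-CCI versus Vehicle-sham and 0.0533 for TD-CCI versus Vehicle-sham. The lack of calls for the supplement thus does not show an absence of effect.

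The precision of the test rests on the spread within all 5 groups, since the 25 libraries were fitted together. The 95% interval of a gene's log2 fold change (TD-CCI over Vehicle-CCI, here and below unless said otherwise) extended by a median of 0.50 to either side over all genes tested. For 76.5% of genes the whole interval lay between -1 and 1, that is, between a halving and a doubling of the level. Among the 16889 genes at a mean of at least 1 CPM this held for 88.8%, with a median of 0.44 to either side. CPM are counts scaled to a library total of 1e6, after TMM (trimmed mean of M values) factors. The median fold change of all genes tested was -0.01 and 46.7% of genes lay above 0, the values against which gene lists are set below.

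No difference in depth, TMM factor or share of mitochondrial ribosomal RNA between the groups was detectable with 5 libraries each. The 10 libraries held 29.2 to 38 M counts (M, 1e6), and the group means of 32.4 M in TD-CCI and 32.6 M in Vehicle-CCI were compared by an exact two-sided permutation test (p = 0.913, adjusted over 3 measures p = 0.913). The TMM factors averaged 1.04 and 1.01 (exact permutation p = 0.556, adjusted p = 0.833). Mitochondrial ribosomal RNA took 6.59% of counts in TD-CCI and 7.89% in Vehicle-CCI (exact permutation p = 0.135, adjusted p = 0.405, with 0.00794 the smallest p that 5 against 5 libraries allow). The difference in that share was -1.30 percentage points and ran from -1.79 to -0.80 with 1 library left out, all on the lower side. In a fit that adjusts for this share, Col1a1 was at 1.12 and Col1a2 at 1.37, beside 1.11 and 1.32 below. Hippocampal markers were present in every library, among them Prox1, the transcription factor of dentate granule neurons (8.63 to 28.4 CPM in the 10 libraries), and Camk2a, a kinase of excitatory synapses (1209 to 3818 CPM).

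Several libraries were high in marker genes of neighbouring tissue, and the source of these transcripts was not tested. Values without these libraries are given beside the results that they moved most. Vehicle-CCI 3 stood apart in genes of the choroid plexus, the tissue that makes cerebrospinal fluid. Its 15 marker genes summed to 4172 CPM there, against 24.2 to 83.5 CPM in the other Vehicle-CCI libraries and 22.1 to 103 CPM in TD-CCI. TD-CCI 4 stood apart in a thalamic list of 15 genes, at 466 CPM against 156 to 225 CPM in the other 9 libraries. Over all 16889 genes at 1 CPM or more, 38 had over 50% of their summed CPM in 1 library, of which Vehicle-CCI 3 held 20, TD-CCI 4 held 10 and TD-CCI 5 held 5.

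Some genes of fibroblasts and the collagen matrix were higher in TD-CCI, among them the gene of smallest p in the comparison. Col1a1 (chromosome 10, 79883622 to 79900625 on mRatBN7.2), the alpha-1 chain of type I collagen, had the smallest p of all genes. It was at 5.62, 7.48, 3.32, 4.8 and 5.03 CPM in Vehicle-CCI 1 to 5 and at 15.6, 6.96, 10.3, 11.1 and 12.8 CPM in TD-CCI 1 to 5. TD-CCI 2 lay below Vehicle-CCI 2, and the other 4 TD-CCI values lay above every Vehicle-CCI value. The log2 fold change was 1.11 ± 0.25 (SE), with a 95% interval of 0.60 to 1.63 (edgeR unadjusted p = 0.000157, adjusted p = 0.9999). Leaving out any 1 of the 10 libraries moved it between 0.97 and 1.27.

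Col1a2 (chromosome 4, 32563938 to 32598868), the alpha-2 chain that pairs with it, was at 9.07, 8.98, 5.82, 6.91 and 7.16 CPM in Vehicle-CCI and at 27.1, 11.2, 18.3, 20.0 and 18.0 CPM in TD-CCI. Its groups did not overlap, and the log2 fold change was 1.32 ± 0.35 (0.60 to 2.03; edgeR unadjusted p = 0.000855). Groups without overlap were found for 31 genes higher in TD-CCI (0.147% of those tested) and 58 lower (0.275%), 89 in all (0.423%). With labels given at random, a gene's groups would lie fully apart, in either direction, with a probability of 0.00794. The observed share was below this, so a lack of overlap by itself does not set a gene apart from chance. Of the 31, 18 were at a mean of at least 1 CPM. The upstream window of Col1a2 is shown because this gene was, among those named, the fibrillar collagen whose groups did not overlap, and the RefSeq table used here held its start but none for Col1a1, Col3a1 or Aplnr. It covers 110 bases before the start on the plus strand, chr4:33518307-33518416 of the build GRCr8.
Col1a2: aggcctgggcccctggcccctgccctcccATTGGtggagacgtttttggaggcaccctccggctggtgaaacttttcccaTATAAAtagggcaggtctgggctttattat
Capitals mark ATTGG at base 30, the reverse strand of the CCAAT box, and the TATA box TATAAA at base 81. The motifs do not overlap. CCAAT on either strand was present in 15.9% of 33469 such windows of 110 bases, TATAAA on the gene's strand in 3.28%, and both in 0.505%.

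Col3a1 (chromosome 9, 47374611 to 47410547), the type III collagen of vessel walls and young scar, was chosen after its values were seen. It was at 7.15, 12.0, 7.37, 2.74 and 5.18 CPM in Vehicle-CCI and at 57.4, 9.34, 10.8, 11.2 and 13.9 CPM in TD-CCI. TD-CCI 1 was far above the rest, and the log2 fold change of 1.57 ± 0.45 was 0.71 without it. Postn, periostin, a matrix protein of healing tissue also chosen after its values were seen, followed the same library, with 21.2 CPM in TD-CCI 1 and 1.65 to 5.96 CPM in the other TD-CCI libraries. Its log2 fold change of 1.43 ± 0.48 was 0.33 without TD-CCI 1. Fn1, fibronectin, was at 17.4, 19.6, 8.85, 13.3 and 21.7 CPM in Vehicle-CCI and at 31.6, 18.9, 23.6, 21.1 and 37.1 CPM in TD-CCI (0.71 ± 0.26).

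**Figure D1:**
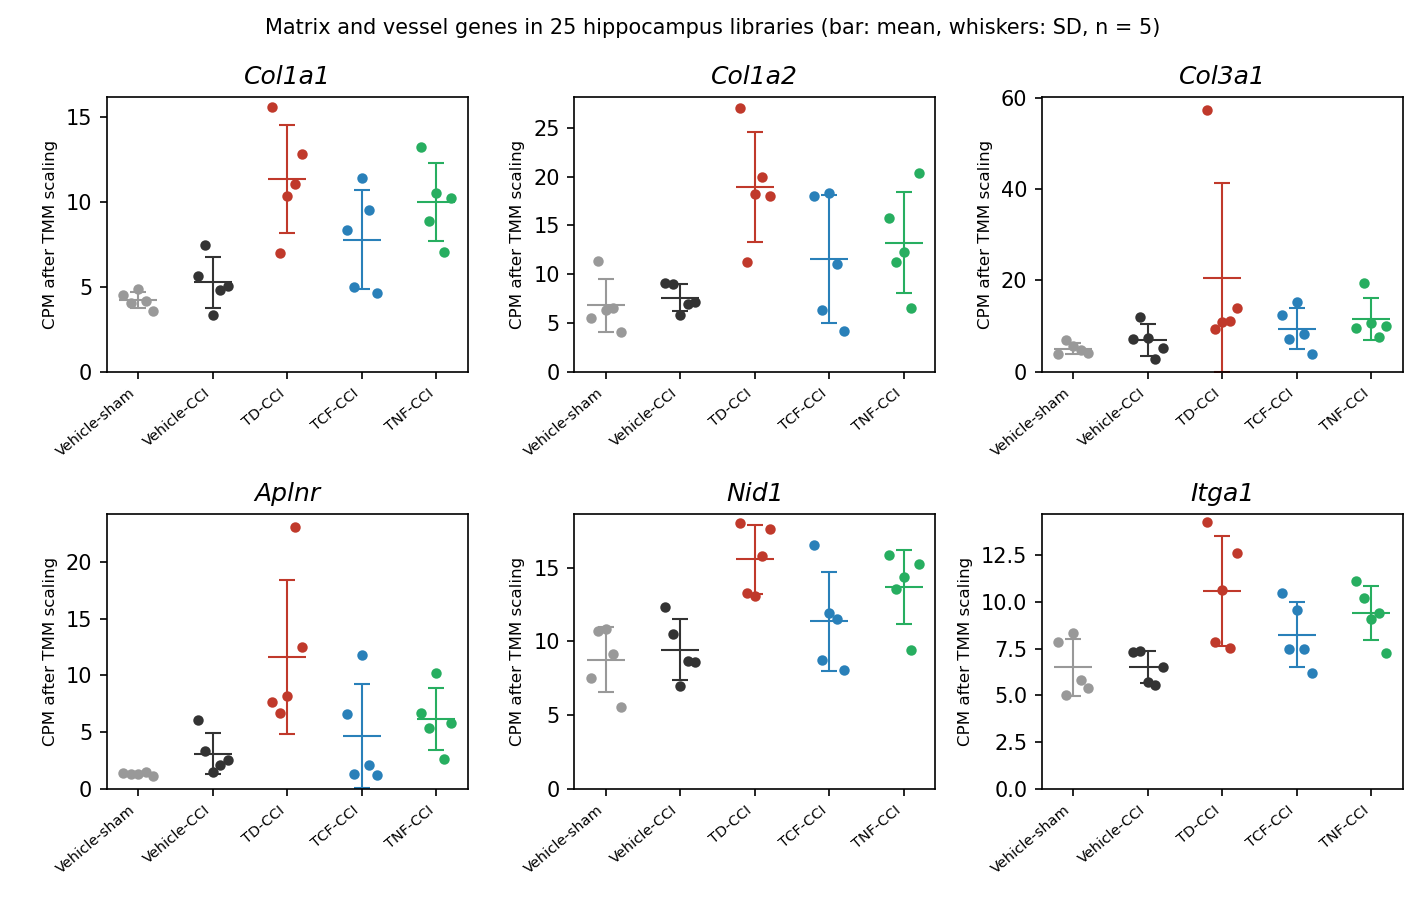
CPM of 6 matrix and vessel genes (vertical axes, linear) in the 25 libraries of the 5 groups. Points are libraries, bars are means and whiskers the SD (n = 5), cut off at 0. TD-CCI had the highest mean in each panel, and in Col1a2, Aplnr, Nid1 and Itga1 all 5 TD-CCI points lay above the 5 Vehicle-CCI points, while TCF-CCI and TNF-CCI points overlapped both.

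Taken as a list, 24 genes of fibroblasts and matrix were tested. Their median log2 fold change was 0.40, and 20 of 24 lay above 0, beside -0.01 and 46.7% for all genes. All lists were chosen with earlier results of these data known. Shares of a list set beside those of all genes are therefore descriptions and not a test. Of the 24, 6 had an unadjusted p under 0.05, all higher (25%, beside the 0.987% of all genes), and 0 passed the adjusted threshold. These were Col1a1, Col1a2, Col3a1, Postn, Fn1 and the receptor gene Pdgfra, which is also a marker of oligodendrocyte precursors (0.39 ± 0.18). The members spread from -0.27 to 1.57. The 4 below 0, chosen after their values were seen, were Col6a1 (-0.27), Dcn (-0.07), Col5a1 (-0.03) and Col4a2 (-0.03). The median of the list was 0.29 without TD-CCI 1, and 0.30 without Vehicle-CCI 3 and TD-CCI 4. In bulk tissue, a difference in the number of cells of a type and one in RNA per cell cannot be told apart.

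Meningeal genes were high in the same library as Col3a1. The meninges are the membranes over the brain surface, and 12 of their marker genes had a median of 0.53, with 11 above 0. Of these 12, 4 were higher at an unadjusted p under 0.05 (33.3%, beside 0.987% of all genes). Islr, a secreted protein of fibroblasts, was at 1.53, 1.58, 1.08, 1.70 and 1.43 CPM in Vehicle-CCI and at 4.67, 1.01, 2.70, 2.58 and 3.78 CPM in TD-CCI (1.01 ± 0.37). Aldh1a2, which makes retinoic acid, was at 10.0 CPM in TD-CCI 1 and 2.18 to 3.98 CPM in TD-CCI 2 to 5, beside 0.885 to 3.30 CPM in Vehicle-CCI (1.14 ± 0.42, and 0.61 without TD-CCI 1). The 12 genes summed to 768 CPM in TD-CCI 1, 206 to 293 CPM in the other TD-CCI libraries and 169 to 363 CPM in Vehicle-CCI. Without TD-CCI 1 the median of the list was 0.13, with 1 gene at an unadjusted p under 0.05. Without TD-CCI 1, Col1a1 and Col1a2 were at 0.97 and 1.15. The part of meningeal tissue in the collagen values was not tested.

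Several genes of blood vessels were higher in TD-CCI as well, with Aplnr the furthest. Aplnr (chromosome 3, 70217407 to 70221052), the receptor of apelin on growing endothelium, was at 6.06, 3.28, 1.49, 2.03 and 2.56 CPM in Vehicle-CCI and at 7.60, 6.68, 8.16, 23.1 and 12.5 CPM in TD-CCI. Its groups did not overlap, although TD-CCI 2 and Vehicle-CCI 1 were close. The log2 fold change was 1.91 ± 0.52 (0.84 to 2.98; edgeR unadjusted p = 0.00112), and 1.5 without TD-CCI 4.

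Nid1 (chromosome 17, 86085046 to 86158277), nidogen, which links laminin to type IV collagen in basement membranes, was at 12.4, 10.5, 6.96, 8.67 and 8.58 CPM in Vehicle-CCI and at 18.1, 13.3, 13.1, 15.8 and 17.6 CPM in TD-CCI (0.72 ± 0.21). Itga1 (chromosome 2, 46646125 to 46812237), the integrin chain that binds collagen, was at 7.33, 7.36, 5.72, 5.57 and 6.49 CPM in Vehicle-CCI and at 14.3, 7.85, 10.6, 7.52 and 12.6 CPM in TD-CCI (0.70 ± 0.20). Neither gene's groups overlapped. Both stayed between 0.57 and 0.84 when any 1 of the 10 libraries was left out. The type IV collagen chains Col4a1 and Col4a2, chosen after their values were seen, were at 0.01 ± 0.29 and -0.03 ± 0.35. Col14a1, a collagen that decorates fibrils, and Foxc1, a transcription factor of meninges and pericytes, were the other named genes without overlap on the higher side (0.67 ± 0.27 and 0.62 ± 0.32). Foxc1 was at 0.36 without TD-CCI 1.

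The list of 19 tested endothelial genes had a median of 0.18, with 15 above 0. Of the 19, 4 were higher at an unadjusted p under 0.05 (21.1%, beside 0.987% of all genes). Cdh5, VE-cadherin of endothelial junctions, was at 3.12, 3.71, 1.49, 3.40 and 2.82 CPM in Vehicle-CCI and at 5.43, 3.01, 4.73, 6.20 and 6.30 CPM in TD-CCI (0.82 ± 0.32). The receptor gene Kdr of VEGF-A was at 2.27 to 4.30 CPM and 3.73 to 7.33 CPM (0.61 ± 0.26). The other 2 were Flt1, a VEGF receptor (0.54 ± 0.26), and Tek, the angiopoietin receptor (0.40 ± 0.18), named after their values were seen. Without Vehicle-CCI 3 none of the 19 had an unadjusted p under 0.05, and without TD-CCI 4 only 1 had. Without both libraries the list median was 0.02, with Kdr at 0.34 and Flt1 at 0.33.

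Among 19 tested genes of angiogenic signalling the median was 0.12, with 14 above 0. Of the 19, 6 were higher at an unadjusted p under 0.05 (31.6%, beside 0.987% of all genes). Besides Aplnr, Kdr, Flt1 and Tek these were Dll4, the Notch ligand of sprouting tip cells, and Angpt2, a ligand of Tek that was named after its values were seen. Kdr, Flt1 and Tek are also in the endothelial list, so the counts of these lists are not separate. Dll4 was at 0.530, 0.978, 0.506, 0.434 and 0.640 CPM in Vehicle-CCI and at 0.957, 1.39, 0.999, 1.13 and 1.49 CPM in TD-CCI (0.94 ± 0.32), so only TD-CCI 1 and Vehicle-CCI 2 crossed. Angpt2 was at 0.569 to 1.32 CPM and 0.823 to 2.53 CPM (0.92 ± 0.32). Without TD-CCI 4, 3 of the 19 genes had an unadjusted p under 0.05 on the higher side. Without Vehicle-CCI 3 there were 3 higher and 1 lower, and without both libraries the list median was 0.05.

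All 12 tested markers of pericytes and smooth muscle lay above 0, with a median of 0.25 and 1 at an unadjusted p under 0.05. That was the smooth muscle actin Acta2, at 1.94, 1.78, 0.822, 2.57 and 1.77 CPM in Vehicle-CCI and 4.28, 1.36, 2.44, 3.79 and 3.48 CPM in TD-CCI (0.79 ± 0.36, and 0.52 without Vehicle-CCI 3 and TD-CCI 4). Myh11, the smooth muscle myosin, was at 0.34 ± 0.26. Without TD-CCI 4, TD-CCI 1 or Vehicle-CCI 3, 0 of the 12 genes had an unadjusted p under 0.05, and without Vehicle-CCI 3 and TD-CCI 4 together the median was 0.16. Matrix metalloproteinases and their inhibitors had a median of 0.25 over 16 tested genes, with 13 above 0 (median 0.11 without Vehicle-CCI 3 and TD-CCI 4). Mmp14, the membrane-bound collagenase, was at 7.11 to 13.5 CPM in Vehicle-CCI and 9.94 to 15.6 CPM in TD-CCI (0.54 ± 0.26). Mmp9, the gelatinase, was at 7.43 CPM in TD-CCI 5 and at most 1.30 CPM in the other 9 libraries, so that its log2 fold change of 1.31 ± 0.67 was -0.16 without TD-CCI 5.

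**Figure D2:**
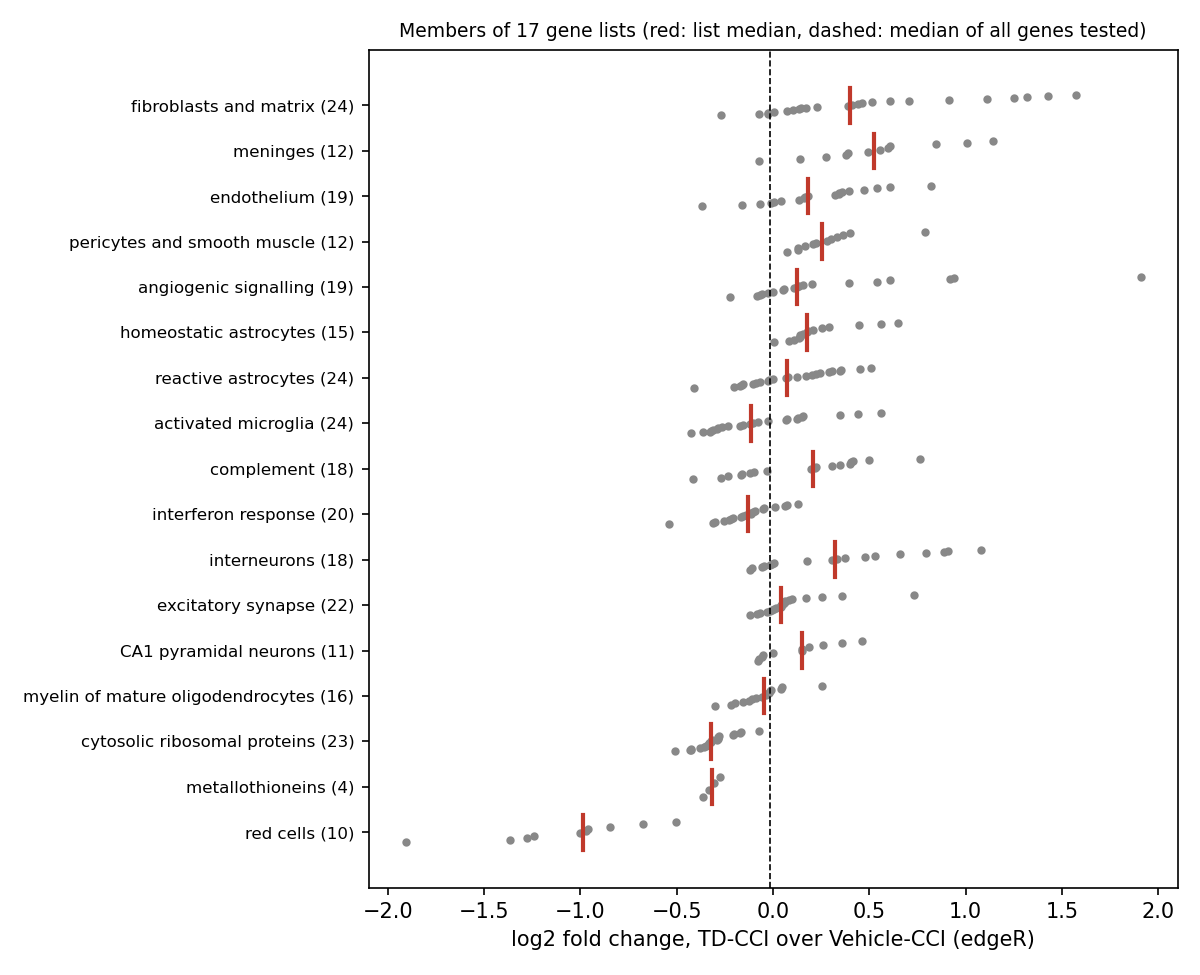
Log2 fold change of TD-CCI over Vehicle-CCI (horizontal axis) for each tested member of 17 gene lists (rows, number of members in brackets). Points are genes, red bars list medians and the dashed line the median of all genes tested; no gene passed the adjusted threshold. Medians of the fibroblast, meningeal and interneuron lists lie furthest right (0.40, 0.53 and 0.32) and that of red cells furthest left (-0.99).

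The largest fold changes of the comparison came from single libraries. TD-CCI 4 was high in some genes of the thalamic list and in others outside it. The 14 tested members of that list had a median of 0.36, with 10 above 0 and 4 below, and spread from -1.32 to 5.38. Of the 14, 4 were higher at an unadjusted p under 0.05 (28.6%, beside 0.987% of all genes). Without TD-CCI 4 the list median was 0.05, with 0 such genes. Tfap2d, a transcription factor of the AP-2 family, was at 17.7 CPM in TD-CCI 4 and at most 0.133 CPM in the other 9 libraries, and its log2 fold change of 5.66 ± 1.52 was -0.54 without that library. Shox2, a homeobox factor of thalamic relay neurons, was at 23.5 CPM there and at most 0.957 CPM elsewhere (5.38 ± 1.56, and 1.34 without TD-CCI 4). The thalamic Wnt effector Tcf7l2 was at 92.4 CPM in TD-CCI 4 and 11.9 to 21.2 CPM in the other libraries (1.00 ± 0.37, and 0.10 without it). Slc17a6, the vesicular glutamate transporter of subcortical neurons, chosen after its values were seen, was at 115 CPM against 8.03 to 18.9 CPM (1.32 ± 0.54, and -0.17 without it).

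Irx2, which DESeq2 called (log2 fold change 7.72 ± 1.44, adjusted p = 0.00299), was counted 285 times in TD-CCI 4, 28 times in TD-CCI 1 and at most 3 times in each other TD-CCI library. In the Vehicle-CCI libraries it had 1 count in Vehicle-CCI 2 and 0 in the others. It was too low for the filter of the edgeR test, and with no filter its edgeR adjusted p was 0.96. Glra1, a glycine receptor subunit, was at 8.73 CPM in TD-CCI 4 and 0.253 to 2.22 CPM in the other TD-CCI libraries, beside 0.267 to 0.601 CPM in Vehicle-CCI (2.61 ± 0.71, and 1.41 without TD-CCI 4). Dao, D-amino acid oxidase, followed a broader pattern, at 0.765, 0.575, 1.26, 0.901 and 0.698 CPM in Vehicle-CCI and at 2.39, 1.01, 1.38, 3.51 and 1.49 CPM in TD-CCI (1.22 ± 0.32, and 0.90 without TD-CCI 4).

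Choroid plexus genes were the mirror image on the lower side, through Vehicle-CCI 3. Ttr, transthyretin, the main secreted protein of that tissue, was at 3757 CPM in Vehicle-CCI 3 and at 12.5, 7.77, 50.6 and 4.86 CPM in Vehicle-CCI 1, 2, 4 and 5. In TD-CCI it was at 54.3, 6.55, 7.34, 7.55 and 12.3 CPM, so its log2 fold change of -5.44 ± 1.77 was -0.10 without Vehicle-CCI 3. The potassium channel gene Kcnj13 was at 104 CPM in Vehicle-CCI 3 and 0.529 to 2.42 CPM in the other 9 libraries. Kcne2, Slco1a5 and Cltrn, genes of a channel subunit, an organic anion carrier and collectrin, followed it (71.4, 80.2 and 57.1 CPM there). All 5 had been among the lower genes of smallest p. The 15 choroid plexus genes had a median of -1.88, with 7 lower at an unadjusted p under 0.05 (46.7%, beside 0.76% of all genes). Without Vehicle-CCI 3 the median was 0.01, with 0 such genes.

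Hormone genes and Fam111a stood out in TD-CCI 1 or TD-CCI 5, and these were chosen after their values were seen. Pomc, the precursor of ACTH and beta-endorphin made in pituitary and hypothalamus, was at 78.1, 12.1, 2.17, 1.95 and 1.09 CPM in TD-CCI 1 to 5 and 1.87 to 5.95 CPM in Vehicle-CCI. Trh, the precursor of thyrotropin-releasing hormone, was at 41.1 CPM in TD-CCI 5 and 0.659 to 1.44 CPM in the other 9 libraries. Fam111a, a protease gene, was at 44.6 CPM in TD-CCI 5 and 0.538 to 1.55 CPM in the other 9. Their log2 fold changes of 2.76, 3.26 and 3.25 were 0.62 without TD-CCI 1 for Pomc, and 0.13 and -0.04 without TD-CCI 5 for Trh and Fam111a. TNF-CCI held such libraries too: Trh was at 56.3 CPM in TNF-CCI 1, and Fam111a at 26.7, 35.1 and 17.7 CPM in TNF-CCI 3, 4 and 5.

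**Figure D3:**
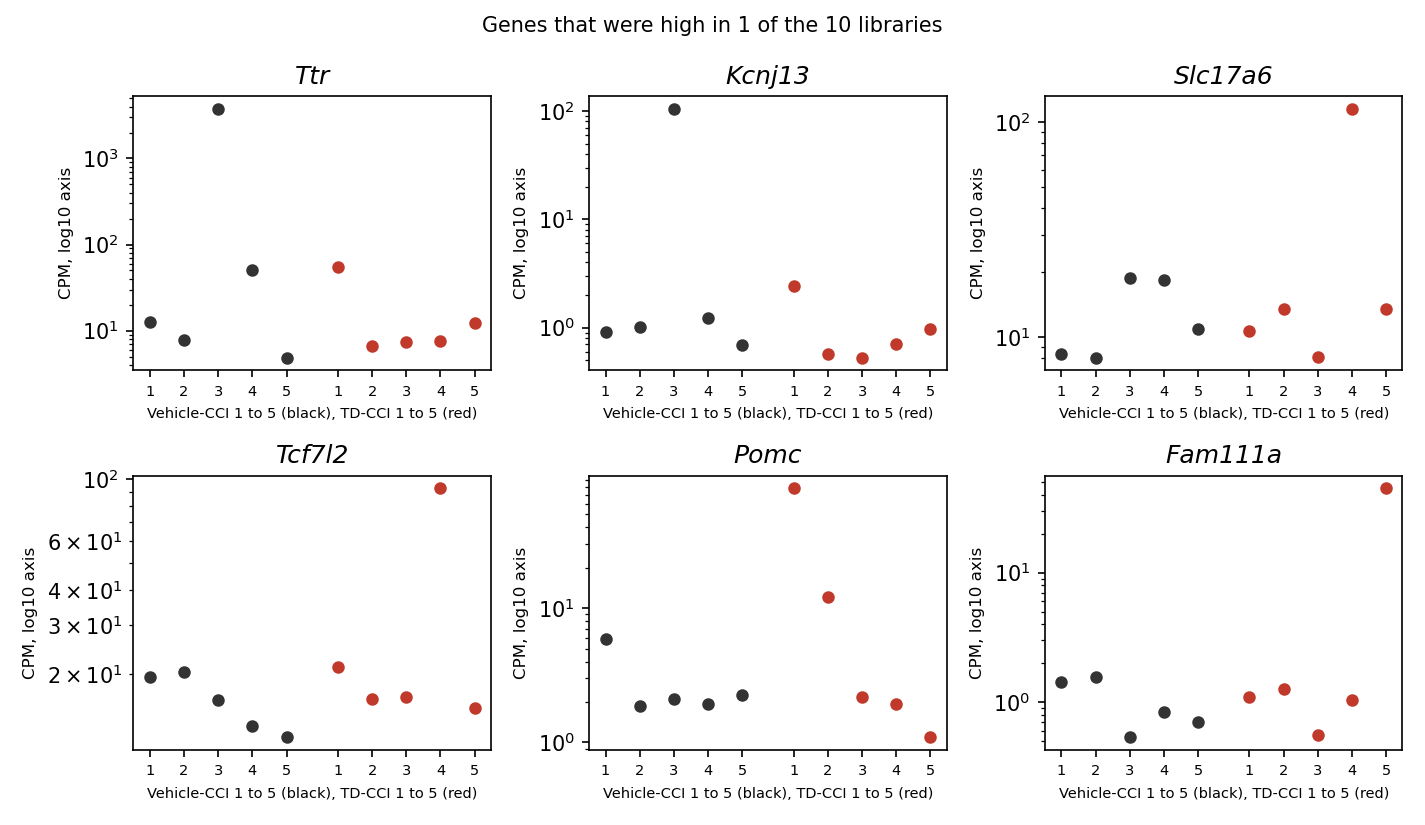
CPM (vertical axes, log10) of 6 genes in Vehicle-CCI 1 to 5 (black) and TD-CCI 1 to 5 (red). In each panel 1 library is far above the other 9, namely Vehicle-CCI 3 for Ttr and Kcnj13, TD-CCI 4 for Slc17a6 and Tcf7l2, TD-CCI 1 for Pomc (78.1 CPM, with 12.1 CPM in TD-CCI 2) and TD-CCI 5 for Fam111a.

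No difference in microglial genes was detectable at this spread, which was wide in Vehicle-CCI. Activated microglia, which engulf debris after injury, are marked by Cd68, Gpnmb and Spp1 among others. The 24 tested markers had a median of -0.11, with 9 above 0 and 0 at an unadjusted p under 0.05. Cd68, a lysosomal protein of phagocytes, was at 17.1, 11.2, 2.21, 1.70 and 3.64 CPM in Vehicle-CCI and at 10.0, 5.70, 5.46, 4.53 and 8.26 CPM in TD-CCI (-0.08 ± 0.52, interval -1.16 to 1.00). Gpnmb, a glycoprotein of lipid-laden microglia, was at 113, 47.6, 12.6, 6.87 and 23.2 CPM in Vehicle-CCI and at 69.8, 48.0, 62.6, 44.4 and 75.8 CPM in TD-CCI (0.56 ± 0.65, interval -0.77 to 1.89). Without Vehicle-CCI 1 these were 0.53 for Cd68 and 1.41 for Gpnmb. For both, Vehicle-CCI 1 was the highest of the 10 libraries and Vehicle-CCI 4 the lowest.

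Spp1, osteopontin, was at 53.9, 36.6, 19, 1.43 and 18.6 CPM in Vehicle-CCI and at 36.2, 35.2, 12.1, 32.7 and 4.54 CPM in TD-CCI (-0.10 ± 0.70). Trem2, the lipid receptor of microglia, was at 8.77 to 53.8 CPM and 16.0 to 29.2 CPM (-0.43 ± 0.35, and -0.09 without Vehicle-CCI 2). Of the resting microglia genes, Tmem119 was at 4.37 to 8.04 CPM in Vehicle-CCI and 7.40 to 14.5 CPM in TD-CCI (0.70 ± 0.33), the 1 of 11 with an unadjusted p under 0.05, while the list median was -0.01 (0.25 without Vehicle-CCI 1).

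Among innate immune lists, complement had a median of 0.21 over 18 genes, interferon response -0.13 over 20, cytokines and chemokines 0.04 over 23, and Toll-like receptors with the inflammasome -0.10 over 18. None of the genes in these 4 lists had an unadjusted p under 0.05. Without Vehicle-CCI 3 and TD-CCI 4 the complement median was -0.02 and that of cytokines -0.07. C3, the central complement protein, was at 48.9, 30.1, 12.0, 20.8 and 35.4 CPM in Vehicle-CCI and at 51.0, 36.1, 32.5, 72.3 and 58.2 CPM in TD-CCI (0.76 ± 0.50, and 0.39 without those libraries). Isg15, an interferon-induced ubiquitin-like protein, was at -0.54 ± 0.47 (-0.32 without Vehicle-CCI 2). Cxcl1, a chemokine for neutrophils, was at 2.77 CPM in Vehicle-CCI 1 and at most 0.748 CPM in the other 9 libraries, so its log2 fold change of -1.23 ± 0.65 was 0.13 without that library.

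T and B cell markers were low, with a sum of 8.97 to 36.3 CPM over 15 genes in the 10 libraries. Of these 7 were tested, with a median of 0.18 and 0 at an unadjusted p under 0.05. Cd8a, a T cell co-receptor, was at 0.648, 1.21, 0.158, 0.0334 and 0.349 CPM in Vehicle-CCI and at 1.18, 0.412, 0.558, 0.220 and 0.862 CPM in TD-CCI (0.41 ± 0.62, and 0.08 without TD-CCI 1). The class II genes, which present antigen to helper T cells, had a median of -0.08 over 9 tested, and RT1-Db1 was at 0.67 ± 0.59 (0.41 without TD-CCI 4). Psme2, a proteasome activator induced by interferon, was at 24.5 to 38.4 CPM and 20.0 to 26.0 CPM (-0.43 ± 0.18), the 1 of 17 class I and immunoproteasome genes with an unadjusted p under 0.05.

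Of 12 thymic markers, 7 were near 0. The recombinase genes Rag1 and Rag2, the pre-T-cell receptor chain Ptcra and the thymic epithelial factor Foxn1 were among these 7, which were too low to be tested, with 0.538 CPM (Prss16, a thymic protease) the highest value of any of the 7 in the 10 libraries. Foxn1 had 2 counts and Ptcra 3 counts in all 10 libraries together. The other 5 were tested, with a median of 0.01. Psmb11, the thymic proteasome subunit, was at 1.6 to 2.25 CPM in Vehicle-CCI and 1.40 to 2.69 CPM in TD-CCI (0.14 ± 0.20). Bcl11b, a T cell factor that is also made by hippocampal neurons, was at 42.1 to 130 CPM and 62.8 to 112 CPM (0.15 ± 0.26).

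Reactive astrocytes, which form the border of a lesion, had a median of 0.07 over 24 genes, with 14 above 0 and 0 at an unadjusted p under 0.05. Gfap, the filament protein of reactive astrocytes, was at 3343, 3166, 1003, 1531 and 2276 CPM in Vehicle-CCI and at 1992, 3262, 2425, 3550 and 2616 CPM in TD-CCI (0.29 ± 0.39, interval -0.50 to 1.08). Vim, vimentin, was at 355, 150, 58.7, 76.5 and 145 CPM and at 239, 151, 259, 152 and 275 CPM (0.45 ± 0.52, and 1.00 without Vehicle-CCI 1). For both genes the groups overlapped, and the Vehicle-sham means of 1054.5 CPM for Gfap and 40.1 CPM for Vim were below both injured means.

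Genes of resting astrocytes lay above 0 in 15 of 15 cases, with a median of 0.18. Slc1a2, the main glutamate transporter, was at 205, 41.3, 84.5, 226 and 131 CPM in Vehicle-CCI and at 193, 142, 260, 275 and 209 CPM in TD-CCI (0.65 ± 0.33, and 0.41 without Vehicle-CCI 2). Slc4a4, a bicarbonate transporter, was at 420 CPM in TD-CCI 4 and 127 to 229 CPM in the other 9 libraries (0.45 ± 0.21, and 0.16 without TD-CCI 4). Without TD-CCI 4 the median of the 15 was 0.03, and without Vehicle-CCI 3 as well it was -0.01.

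Medians of the 4 lists of excitatory neuron genes lay between -0.01 and 0.16. Camk2a was at 1862, 1209, 1416, 3818 and 2299 CPM in Vehicle-CCI and at 1450, 2840, 2079, 2550 and 2174 CPM in TD-CCI (0.07 ± 0.30, interval -0.54 to 0.67). Bdnf, the neurotrophin, was at 23.3, 18.3, 31.1, 36.3 and 27 CPM and at 22.9, 29.8, 22.3, 25.8 and 27.9 CPM (-0.08 ± 0.27, interval -0.64 to 0.48). Excitatory synapse genes had a median of 0.04 over 22, CA1 pyramidal markers 0.15 over 11 and dentate granule markers 0.16 over 12, with 0 genes of the 3 lists at an unadjusted p under 0.05. Markers of CA2 and CA3 pyramidal neurons had a median of -0.01 over 14, with 1 such gene. That was Coch, cochlin, at 4.8 to 8.15 CPM in Vehicle-CCI and at 23.2, 5.86, 5.58, 18.8 and 5.84 CPM in TD-CCI (0.93 ± 0.34, and 0.53 without TD-CCI 1), so that TD-CCI 1 and TD-CCI 4 were high and the rest overlapped. Without Vehicle-CCI 4, 4 CA1 and 2 dentate genes had an unadjusted p under 0.05 on the higher side. Prox1 was at 0.43 ± 0.31 (0.26 without Vehicle-CCI 2).

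Interneuron genes had a median of 0.32 over 18, with 12 above 0. Of these 18, 4 were higher at an unadjusted p under 0.05 (22.2%, beside 0.987% of all genes). Gad2, which makes GABA, was at 14.0, 4.95, 6.58, 19.4 and 8.12 CPM in Vehicle-CCI and at 14.0, 7.41, 14.4, 41.6 and 22 CPM in TD-CCI (0.91 ± 0.39, and 0.45 without TD-CCI 4). Nos1, neuronal nitric oxide synthase, was at 3.22 to 8.12 CPM and at 5.63 to 18.8 CPM (0.89 ± 0.34, 0.61 without TD-CCI 4 and 0.47 without Vehicle-CCI 3 as well). TD-CCI 4 was the highest library for both. Without it the list had a median of 0.09 and 0 genes at an unadjusted p under 0.05.

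The wider spread of Vehicle-CCI was not limited to glial genes. Over all 21064 genes, the SD of log2 CPM was larger in Vehicle-CCI than in TD-CCI for 65.4%, and the share ran from 56.7% to 70.9% when 1 library was left out, lowest without Vehicle-CCI 4 and highest without TD-CCI 4. The median SD was 0.33 in Vehicle-CCI and 0.28 in TD-CCI, beside 0.26 in TCF-CCI, 0.34 in TNF-CCI and 0.48 in Vehicle-sham. It was larger in Vehicle-CCI for 23 of 24 activated microglia genes (median SD 0.78 against 0.37), 16 of 18 complement genes (0.80 against 0.31) and 9 of 11 CA1 genes (0.74 against 0.28). For activated microglia the TD-CCI value was the smallest of the 5 groups, with 0.55 in Vehicle-sham, 0.64 in TCF-CCI and 0.55 in TNF-CCI. Fibroblast genes had a larger SD in Vehicle-CCI in 10 of 24 cases, interneuron genes in 5 of 18 and meningeal genes in 2 of 12. No test of the spread itself was made, so whether the groups differ in it was not tested.

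The libraries at both ends were the same for several lists. The mean of the activated microglia genes, on a log2 scale centred on the 10 libraries, was 0.77, 0.61, -0.38, -1.11 and -0.27 in Vehicle-CCI 1 to 5 and 0.49, 0.21, -0.13, -0.10 and -0.09 in TD-CCI 1 to 5. Reactive astrocyte genes gave 0.64, 0.54, -0.48, -0.87 and -0.34, and 0.40, -0.05, 0.04, -0.09 and 0.21. Vehicle-CCI 1 and 2 were thus high and Vehicle-CCI 3 and 4 low in both. CA1 genes had -0.16, -0.89, -0.08, 0.62 and -0.02 in Vehicle-CCI, with Vehicle-CCI 2 lowest and Vehicle-CCI 4 highest, and lay between -0.09 and 0.27 in TD-CCI.

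**Figure D4:**
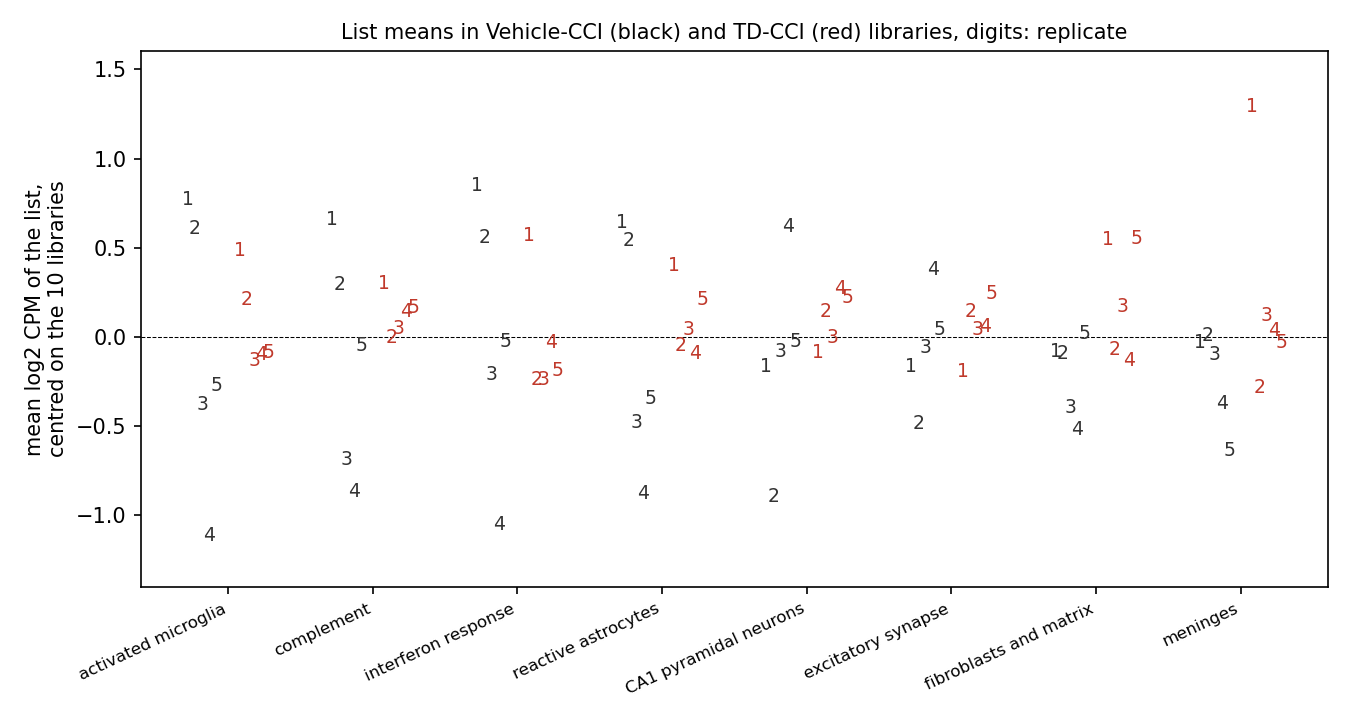
Mean log2 CPM of 8 gene lists, centred on the 10 libraries (vertical axis), in Vehicle-CCI (black) and TD-CCI (red). Digits are replicate numbers. In the microglial, complement, interferon, astrocyte and CA1 lists the Vehicle-CCI libraries reach further in both directions than the TD-CCI libraries, and in the meningeal list TD-CCI 1 is far above the rest (1.29).

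On the lower side, genes of red cells and of ribosomal proteins lay below 0 throughout. Markers of red cells, which tell of blood in the tissue, lay below 0 in 10 of 10 cases, with a median of -0.99 (-0.69 without Vehicle-CCI 3). Ahsp, which stabilises alpha-globin, was at 0.233 to 0.885 CPM in Vehicle-CCI and 0.165 to 0.365 CPM in TD-CCI (-1.24 ± 0.57). The red cell genes summed to 355, 324, 726, 450 and 146 CPM in Vehicle-CCI and to 161, 198, 217, 288 and 156 CPM in TD-CCI, so that 4 of 5 Vehicle-CCI libraries exceeded every TD-CCI library and Vehicle-CCI 5 lay below them all. The 8 tested neutrophil genes had a median of -0.21, with 3 above 0 and 0 at an unadjusted p under 0.05. The 2 of smallest p, S100a8 and S100a9, which code for calprotectin, were at -1.72 ± 0.87 and -1.27 ± 0.68, with 2.02 and 2.97 CPM in Vehicle-CCI 3 and at most 0.403 and 1.20 CPM in the other 9 libraries, and at -0.71 and -0.73 without Vehicle-CCI 3.

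All 23 tested genes of cytosolic ribosomal proteins lay below 0, with a median of -0.32 and 0 at an unadjusted p under 0.05. Rps2, the 1 gene of the list whose groups did not overlap and chosen for that, was at 342 to 413 CPM in Vehicle-CCI and at 238 to 324 CPM in TD-CCI (-0.43 ± 0.26). The list mean was 0.12 and 0.07 in TD-CCI 2 and TD-CCI 4 and -0.27 to -0.36 in the other 3 TD-CCI libraries, while it was 0.02 to 0.35 in Vehicle-CCI. These are short genes, with 463 to 1475 exonic bases and a median of 819.

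Short genes as a class were lower in TD-CCI. Over all genes tested, the median log2 fold change was -0.14 up to 500 exonic bases, -0.16 from 501 to 1000, -0.08 from 1001 to 2000, -0.03 from 2001 to 4000, 0.02 from 4001 to 8000 and 0.07 above 8000. Of the genes of 501 to 1000 bases 29.0% lay above 0, and of those above 8000 bases 68.8%. The ribosomal protein median of -0.32 lay beyond the -0.16 of its length class, and the part of gene length in it was not tested. TCF-CCI over Vehicle-CCI, which shares the control libraries, had -0.15 and 0.07 in the same 2 classes, and TD-CCI over TCF-CCI had -0.02 and 0.00. TNF-CCI over Vehicle-CCI had -0.08 and 0.04, and TD-CCI over TNF-CCI -0.06 and 0.02. Metallothioneins, short genes of metal-binding proteins, were below 0 in 4 of 4 cases with a median of -0.32, and the named pair Mt3 and Mt1 at -0.27 ± 0.19 and -0.33 ± 0.27 (Mt1 at -0.16 without Vehicle-CCI 2).

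**Figure D5:**
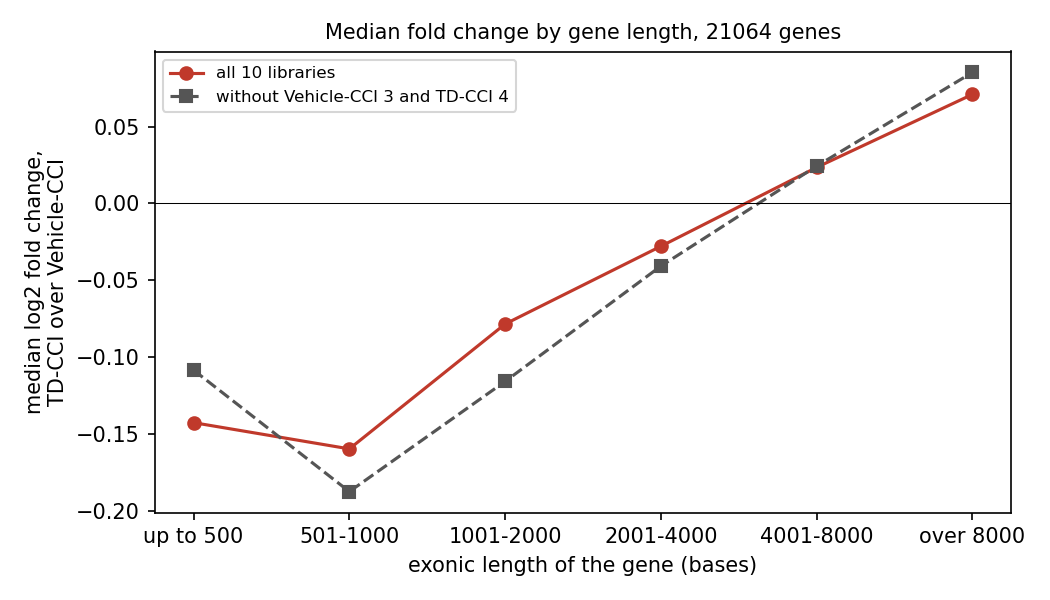
Median log2 fold change of TD-CCI over Vehicle-CCI (vertical axis) of all genes tested in 6 classes of exonic length (horizontal axis, bases), with all 10 libraries and without Vehicle-CCI 3 and TD-CCI 4. Both lines run from about -0.16 and -0.19 at 501 to 1000 bases to 0.07 and 0.09 above 8000 bases.

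Other lower genes varied in fold and level. Mrps26, of the mitochondrial ribosome, was at 34.6, 48.0, 43.0, 43.1 and 41.5 CPM in Vehicle-CCI and at 33.0, 33.9, 31.8, 35.6 and 33.4 CPM in TD-CCI (-0.33 ± 0.11, edgeR unadjusted p = 0.00515), and Vehicle-CCI 1 overlapped TD-CCI 4. Fam183a and Cfap126, both genes of motile cilia, did not overlap. Fam183a was at 20.4, 20.9, 25.5, 13.7 and 12.3 CPM and at 11.1, 10.4, 7.81, 7.77 and 9.62 CPM (-0.99 ± 0.40). Cfap126 was at 12.6 to 22.8 CPM and at 6.55 to 12.6 CPM (-0.70 ± 0.31). The list of 19 motile cilia genes as a whole had a median of -0.09 with 8 above 0, although Pifo and Tekt1 were at -0.86 ± 0.46 and -0.55 ± 0.34. Of the 58 lower genes without overlap, the other 4 that the naming rule picked were Ceacam4 (-1.22 ± 0.43), the xenobiotic receptor Nr1i2 (-0.91 ± 0.38), Ifitm6 (-0.67 ± 0.24) and Pigbos1 (-0.58 ± 0.26).

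Set against the other supplements, TD-CCI was not separable either. In TD-CCI versus TCF-CCI edgeR called 0 of 21064 genes (0%; 403 at an unadjusted p under 0.05, 1.91%), and in TD-CCI versus TNF-CCI also 0 (0%; 517, 2.45%; smallest adjusted p 0.817). DESeq2 called 0 of 32609 in the former (0%) and 1 in the latter (0.00307%). That gene was F3, tissue factor, which starts blood clotting and was chosen for that call. It was at 18.1, 16.8, 14.6, 16.6 and 12.1 CPM in TD-CCI and at 25.9, 25.3, 24.4, 22 and 27.9 CPM in TNF-CCI, without overlap. DESeq2 gave -0.69 ± 0.14 with an adjusted p of 0.0154, where edgeR gave -0.68 ± 0.14 with an adjusted p of 0.817. In Vehicle-CCI F3 averaged 18.3 ± 2.22 CPM (SD, n = 5), and over it TD-CCI was at -0.23 ± 0.14.

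For Col1a1 and Aplnr, the means of the other supplements lay between those of Vehicle-CCI and TD-CCI. Col1a1 averaged 4.23 ± 0.474 CPM in Vehicle-sham, 5.25 ± 1.51 in Vehicle-CCI, 7.76 ± 2.92 in TCF-CCI, 9.98 ± 2.29 in TNF-CCI and 11.4 ± 3.18 in TD-CCI (SD, n = 5 in each group). TD-CCI over TCF-CCI was 0.55 ± 0.25 and over TNF-CCI 0.19 ± 0.25, neither passing. Aplnr averaged 1.31, 3.08, 4.60, 6.12 and 11.6 CPM in the same order, with TD-CCI over TCF-CCI at 1.33 ± 0.51 and over TNF-CCI at 0.93 ± 0.50. The fibroblast list had a median of 0.40 in TD-CCI, 0.21 in TCF-CCI and 0.36 in TNF-CCI, each over the same 5 Vehicle-CCI libraries, with 20 of 24 genes above 0 in each. Directly against TCF-CCI 16 of the 24 were above 0, and against TNF-CCI 14. Their summed level had a median of 1254 CPM in TD-CCI, 1364 CPM in TCF-CCI, 1351 CPM in TNF-CCI and 1085 CPM in Vehicle-CCI, so the list as a sum was not highest in TD-CCI. Activated microglia genes had -0.11, -0.42 and 0.23 in that order. Because the 3 comparisons share their controls, their likeness carries no separate weight. Directly against TNF-CCI, the TD-CCI medians were 0.09 for fibroblasts and matrix and -0.37 for activated microglia, and against TCF-CCI 0.23 and 0.28.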

How the data were processed

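RNA-seq of hippocampus was analysed from the gene counts that the authors deposited as 1 table of whole-number featureCounts values for 25 libraries, per the file headers. Per the submitters' processing notes, the tools included featureCounts, Salmon, STAR and DESeq2, with no version, and the build was mRatBN7.2. Whether strand was used in counting is not given there, so reads of overlapping or antisense genes and of near-identical copies cannot be told apart. The authors' own comparison tables were not used here.

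Of 34322 genes listed, 7 with empty cells were left out, and 0 columns of sample values stayed unused. Groups came from the sample labels. Totals over the 25 libraries lay between 27.3 and 44.9 M counts (median 32.8 M, where M is 1e6). Reads carry no molecular identifiers in the sources used here, so intervals cover the spread between libraries and not single molecules. No 2 libraries of a group agreed within sampling noise (chi-square per degree of freedom from 24.9 to 144).

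edgeR 4.0.16 (R 4.3.3) fitted all 25 libraries with a mean per group, TMM factors and its own filter on low counts, which kept 21064 genes. P-values of the quasi-likelihood F test were adjusted after Benjamini and Hochberg and called under 0.05, and the SE is the log2 fold change divided by the square root of F, without sign. Library measures were compared by exact permutation (SciPy 1.17.1). The scripts were tested on simulated data. Alternatives were DESeq2 1.42.0, limma 3.58.1 voom, other filters and scalings, other sets of libraries, each library left out, a replicate block, and covariates. The scaling to CPM, lists and medians were computed from the counts. The members and gene lists were chosen with earlier results of these data known.

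Genes were named by rule. These were the 6 of smallest p in each direction at a mean of 1 CPM or more, the 6 in each direction of largest fold among those whose groups did not overlap, both among genes with a standard symbol and at that level, a set of 10 injury genes, and the 2 of smallest p in each list described. Others are marked as chosen after their values were seen. Some genes that the rule names are not reported here. Replicate numbers were shared between groups, and the deviations of same-numbered libraries correlated at 0.31, 0.05, -0.04, 0.44 and 0.19 for numbers 1 to 5. Vehicle-CCI 1, 4 and 5 correlated best with the TD-CCI library of their own number, and the others did not. No label says that the numbers mark pairs, so they were not taken to pair libraries.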

Additional observations from a re-analysis of the deposited data

Results flagged for a closer look

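The 5 values of a group were examined for 31 genes and 3 library measures in both groups, 68 sets in all, and in 11 of them (16.2%) 1 library stood far from the nearest other. Chance flags about 1 in 20 such sets where values are normally distributed. Gene values were CPM on a linear scale, and all 11 flags were on the high side. Many of these genes were also named for a small p or a large fold in the same data. The share therefore cannot be read against that rate. Vehicle-CCI 3 was far above the other 4 in 5 choroid plexus genes, with 3757 CPM of Ttr, 104 CPM of Kcnj13, 80.2 CPM of Slco1a5, 71.4 CPM of Kcne2 and 57.1 CPM of Cltrn. The 5 genes mark 1 tissue and were high in 1 library. Within TD-CCI, replicate 1 was the high library for Ttr (54.3 CPM) and Kcnj13 (2.42 CPM), far below Vehicle-CCI 3. TD-CCI 4 was far above the other TD-CCI libraries in Tfap2d (17.7 CPM), Glra1 (8.73 CPM) and the collagen Col14a1 (2.36 CPM). Foxc1 was at 9.09 CPM in TD-CCI 1, the library with the highest sum of meningeal genes, and between 4.53 and 4.72 CPM in the other TD-CCI libraries.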

How the results depend on the processing

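The count of 0 called genes held in TD-CCI versus TCF-CCI under all alternatives. In TD-CCI versus Vehicle-CCI and versus TNF-CCI it held under all but DESeq2, which called 1 gene in each, Irx2 and F3. Genes at an unadjusted p under 0.05 in TD-CCI versus Vehicle-CCI numbered 368, and 260 to 712 with 1 library left out (712 without Vehicle-CCI 4, 615 without Vehicle-sham 2). They numbered 721 with no filter, 638 with voom, 634 with the injured groups only, 631 with the groups compared only, and 226 without Vehicle-CCI 3 and TD-CCI 4. With the replicate number as a block they numbered 484, and the block moved no count of calls. For 3 of 5 Vehicle-CCI libraries the TD-CCI library of highest correlation bore the same number.

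Of 76 named genes followed through the alternatives, 62 kept their direction under every alternative run. Without Vehicle-CCI 3 and TD-CCI 4, a choice made after seeing the data, Tfap2d was at -0.39, Kcnj13 at 0.23, Ttr at 0.0889, Kcne2 at 0.0915, Gfap at -0.0037 and Camk2a at -0.11. With a covariate for the share of mitochondrial rRNA, Camk2a was at -0.0200. Cd68 was at 0.36 with voom, 0.12 with the replicate block and 0.0691 with the number in the title as a covariate. Leaving out 1 library at a time gave -0.16 to 1.57 for Mmp9, -0.54 to 6.00 for Tfap2d, -0.17 to 1.57 for Slc17a6, -0.0365 to 3.55 for Fam111a, -4.96 to 0.11 for Kcnj13, -2.14 to 0.0178 for Kcne2, -0.33 to 0.53 for Cd68, -0.41 to 0.35 for Spp1, -0.19 to 0.0425 for Bdnf, -0.0829 to 0.38 for Camk2a, -0.0120 to 0.40 for Bcl11b and -1.52 to 0.13 for Cxcl1. The difference in library totals ran from -1.62 to 0.577 M and that in TMM factors from -0.00293 to 0.0478. That in the mitochondrial rRNA share ran from -1.79 to -0.80 percentage points.

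Of 49 list medians, 44 never moved by over 1 SD. The others were neutrophils (-0.96 with DESeq2, -0.89 with no filter and -0.79 at a minimum of 1 CPM), choroid plexus (0.01 without Vehicle-CCI 3, 0.09 without it and TD-CCI 4), oligodendrocyte precursors (-0.16 without both), homeostatic microglia (0.25 without Vehicle-CCI 1) and angiogenic signalling (0.30 without Vehicle-CCI 2). The causes were not tested. With 5 libraries a group, the spread between libraries sets the precision given above. That spread was taken over all 5 groups and includes Vehicle-sham, which is outside the comparison and had the largest median SD. It was 0.48 there, beside 0.33 in Vehicle-CCI and 0.28 in TD-CCI.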
